A study of Homo sapiens with 6 samples.

Results

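The enzymes that add or remove methyl groups on histone lysines were described in the cell line MDA-MB-231 M3, which the labels call bone-metastatic and whose parent line comes from a human triple-negative breast cancer, after knockdown of PRMT1, which places most asymmetric dimethyl marks on arginines. They were taken by symbol from the deposited gene table: the KMT, KDM, SETD, SETDB, EZH, EHMT, NSD and SUV39H families, PHF2, PHF8, DOT1L, ASH1L and the Polycomb subunits EED, SUZ12 and JARID2. The names gave 55 of 20532 genes, and 52 of them had enough reads to be tested. KDM4E, KDM4F and KDM5D had no count in any library. The study has 3 libraries of siPRMT1 cells, in which PRMT1 was knocked down by small interfering RNA, and 3 of control cells, described as untreated or control without mention of a control transfection. No time after transfection is given. Both groups are 1 line cultured alone, sequenced as stranded mRNA, and the labels call the replicates biological without saying whether they were separate transfections, so the spread behind each p-value is that between these libraries and may be technical.

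Methyl marks on histone tails are set by SET-domain enzymes and by DOT1L, and are taken off by flavin-dependent enzymes of the LSD type or by Jumonji enzymes that use oxygen, iron and 2-oxoglutarate. Each mark is named by histone and lysine: H3K4 methylation is found at active promoters and enhancers, H3K36 methylation over transcribed genes, H3K79 methylation at active genes, H3K27 methylation at Polycomb-silenced genes, H3K9 methylation in heterochromatin, and H4K20 methylation in cell-cycle control and heterochromatin. Many of these enzymes come as pairs of paralogs that share a mark but sit in different complexes. PRMT1 itself methylates an arginine of histone H4 and acts on many other proteins.

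Promoters of 4 of the genes given per library below are shown first, because they set SUV39H1, which had the highest fold change of the H3K9 writers, beside the lowest of the H3K27 writer genes (SUZ12), the H3K27 erasers (KDM6A) and the KDM7 group (KDM7A). Each is the 150 bases just before the RefSeq start of the gene (GRCh38.p14), 5′ to 3′ on the strand of the gene. Capitals mark any of 6 short motifs, of which only the GC box GGGCGG, the CCAAT box CCAAT and the ETS site CCGGAAG, read on both strands, occur in these windows. SUV39H1 lies at chrX:48695404-48695553, plus strand, KDM6A at chrX:44873038-44873187, plus strand, KDM7A at chr7:140176984-140177133, minus strand and SUZ12 at chr17:31936857-31937006, plus strand.
SUV39H1: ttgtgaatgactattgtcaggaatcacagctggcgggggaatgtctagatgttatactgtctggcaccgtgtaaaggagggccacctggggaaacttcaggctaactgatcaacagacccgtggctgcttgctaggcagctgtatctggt
KDM6A: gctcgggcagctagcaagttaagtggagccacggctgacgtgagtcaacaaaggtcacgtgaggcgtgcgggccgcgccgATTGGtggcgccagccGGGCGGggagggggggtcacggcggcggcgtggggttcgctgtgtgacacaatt
KDM7A: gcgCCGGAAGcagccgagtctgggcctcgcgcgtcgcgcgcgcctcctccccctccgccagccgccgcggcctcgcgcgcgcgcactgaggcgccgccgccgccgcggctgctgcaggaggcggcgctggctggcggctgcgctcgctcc
SUZ12: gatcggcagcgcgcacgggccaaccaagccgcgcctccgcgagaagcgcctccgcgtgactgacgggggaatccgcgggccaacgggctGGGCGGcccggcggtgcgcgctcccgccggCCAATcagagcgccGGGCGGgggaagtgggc
The window of SUV39H1, which rose, holds none of the motifs and 3 CpG dinucleotides. Those of the genes that fell hold 17 (KDM6A), 30 (KDM7A) and 25 (SUZ12). These 4 do not stand for the rest: over the whole 300-base promoters the median CpG count was 29 in 14 members that rose and 30 in 30 that fell, against 26 in 10778 tested genes with a promoter entry.

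Total counts were 18015827, 20545995 and 16968563 in the siPRMT1 libraries and 19645127, 17921097 and 19054466 in the control libraries. PRMT1 had 11.97, 11.9 and 11.9 CPM in the siPRMT1 libraries and 144, 149 and 145 CPM in the control libraries, where CPM is the count scaled to the library's size after TMM normalization. The knockdown gave a log2 fold change of -3.62 (SE 0.0451, adjusted p = 9.06e-297). Mitochondrially encoded genes took 8.64% to 8.74% of counts in siPRMT1 libraries and 5.001% to 5.09% in control libraries, and their part in the results below was not tested. Marker levels here are scaled by total counts. The line's 5 markers (VIM, KRT8, KRT18, CD44, EGFR) summed to 4993 to 5033 CPM in siPRMT1 and 4417 to 4490.5 CPM in control libraries. The sum hides markers that moved apart. KRT8 had 24490, 27436 and 22974 counts in siPRMT1 and 11312, 10410 and 11500 in control libraries, and KRT18 rose as well. EGFR had 1786, 2081 and 1710 counts in siPRMT1 and 5223, 4711 and 5023 in control libraries, and CD44 fell as well. ESR1 and PGR together reached at most 0.0487 CPM in siPRMT1 and 0.223 CPM in control libraries. Markers of leukocytes summed to 7.10 to 7.79 CPM in siPRMT1 and 4.83 to 5.55 CPM in control libraries, and CD14 gave nearly all of the counts. Markers of bone cells summed to 6.48 to 6.67 CPM in siPRMT1 and 4.13 to 5.14 CPM in control libraries, with IBSP and SP7 at 0 or 1 count in each library. Markers of endothelium summed to 17.5 to 18.4 CPM in siPRMT1 and 23.4 to 23.98 CPM in control libraries, nearly all from PECAM1, with CDH5 at 0 in all libraries but 1.

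More of these genes fell than rose after PRMT1 knockdown; in bulk RNA, fewer cells that express a gene and less RNA per cell cannot be told apart. Of the 52 tested, 32 were lower, 15 higher and 5 (SUV39H2, SETD4, SETD9, KDM4D and KDM6B) did not pass an adjusted p of 0.05 by the quasi-likelihood test of edgeR, Benjamini-Hochberg adjusted over 13710 genes. That is 61.5% lower and 28.8% higher, where the share over all tested genes was 45% lower and 44.3% higher. At least 2-fold falls were found for 17 members, or 32.7%, beside 21% of all tested genes, and at least 2-fold rises for 2 members, KMT5C and SUV39H1, beside 15.3%. The 3 libraries of one group did not overlap those of the other for 47 members, or 90.4%, close to the 89.1% of all tested genes. With 89.3% of all tested genes past the threshold, the direction and size of a change say more than the call. The median log2 fold change (siPRMT1 over control) was -0.57 over the members and -0.0082 over all tested genes.

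Levels are relative to the rest of each library, and across all genes the fold change followed the length and GC content of the transcript, so that 2 other values stand beside the main one. With library size as the only scaling, the all-gene median shifted by -0.32 (log2), and this gave 8 members higher and 42 lower, beside 33.5% and 55.4% of all tested genes. A correction for the GC content and length of the transcript gave 15 higher and 30 lower, that is 28.8% and 57.7%, beside 39.9% and 40.6% of all tested genes. The corrected median over the members was -0.19, against -0.0089 over all tested genes. With and without the correction, 26 members were called lower and 11 higher both times, and 6 were called in opposite directions (NSD1, KDM5B, SETDB2, SETD1A, KDM4B and KDM8). In what follows a value in parentheses beside a gene is its log2 fold change, siPRMT1 over control, and the one marked as corrected takes GC content and length into account.

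**Figure D1:**
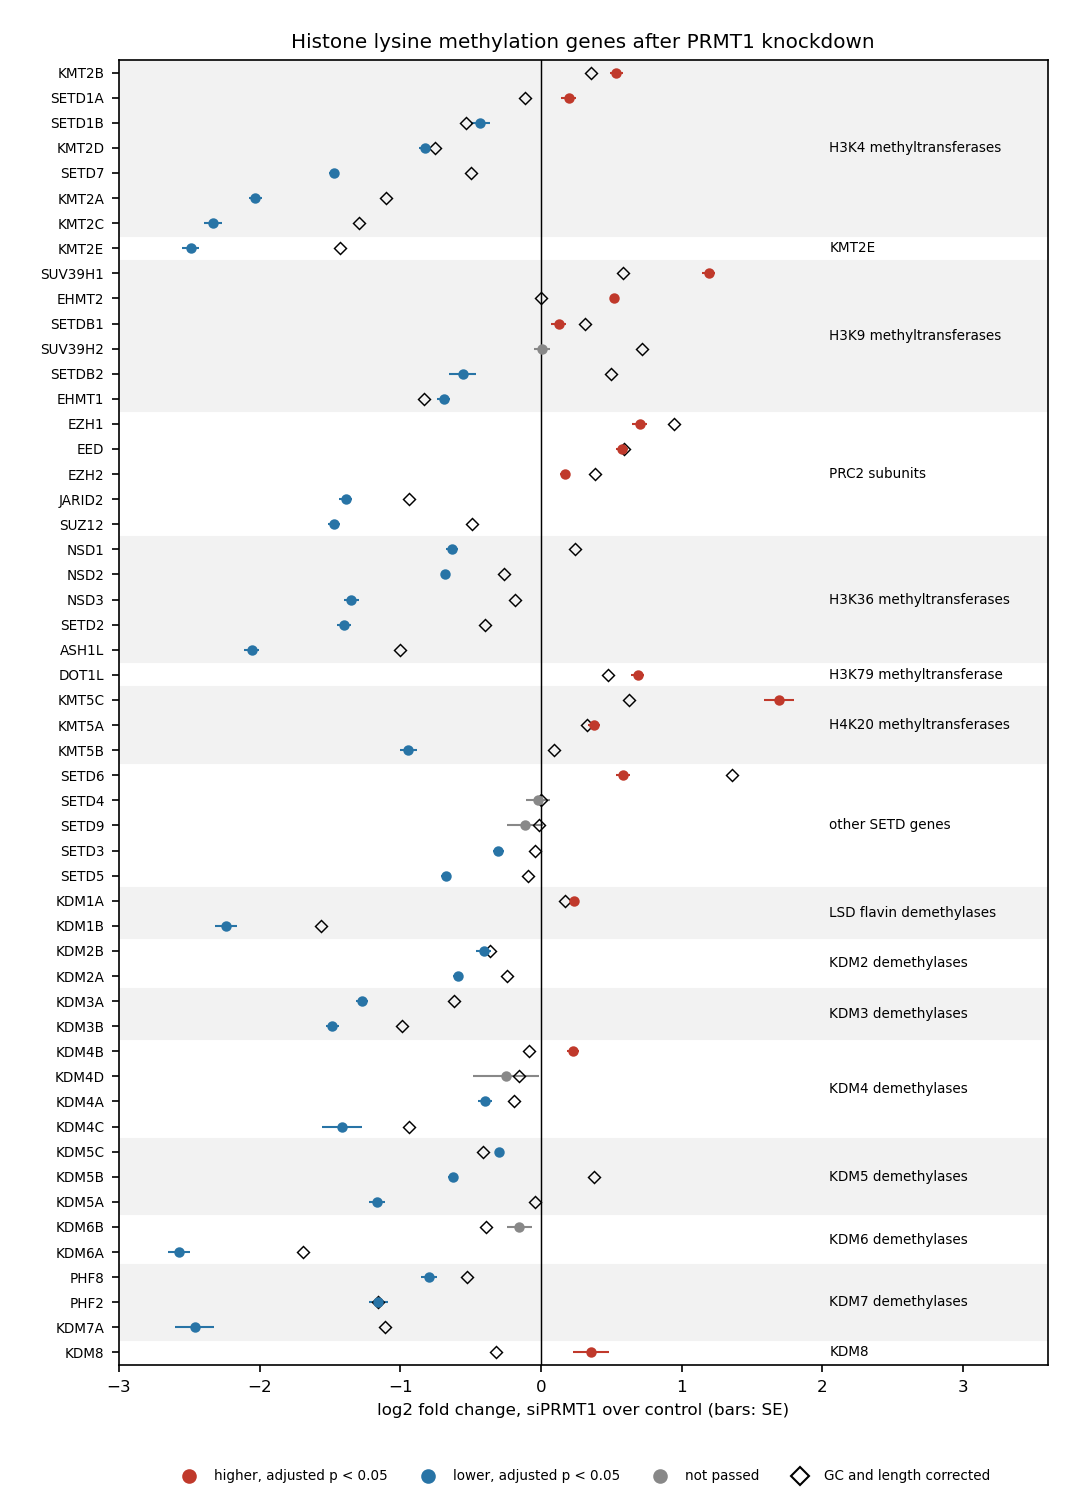
Log2 fold changes (siPRMT1 over control, horizontal axis) of the 52 tested genes by role; filled points are edgeR estimates with SE bars, coloured by call, and open diamonds are the values corrected for GC content and transcript length. KDM6A (-2.57) is lowest and KMT5C (1.69) highest, and diamonds lie nearer 0 than the points for most of the larger falls.

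Of 19 tested demethylase genes 14 were lower and 3 higher (median log2 fold change -0.62), and after the correction 15 were lower and 2 higher (median -0.39). With library size alone 18 demethylase genes were lower and 0 higher. Of 27 methyltransferase and PRC2 genes 15 were lower and 11 higher, with a median of -0.56 that was 0.0032 after the correction (13 lower, 12 higher). With library size alone 19 of them were lower and 7 higher. The other 6 genes, KMT2E and SETD relatives with other or unsettled substrates, had 3 lower and 1 higher. The difference between writers and erasers was not tested. These counts, and those by role below, stand beside 45% lower and 44.3% higher of all tested genes. The all-gene shares were 40.6% and 39.9% after the correction, and 55.4% and 33.5% with library size alone. Of tested genes with transcripts of 6000 bases or more, 79% were lower and 12.8% higher, and 45.7% and 38.1% after the correction.

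Among the H3K4 methyltransferases 5 of 7 fell and 2 rose (6 lower and 1 higher after the correction, 6 and 1 with library size alone). KMT2C, which with KMT2D monomethylates H3K4 at enhancers, had 8.50, 8.65 and 8.67 CPM in the siPRMT1 libraries and 42.9, 42.4 and 44.6 CPM in the control libraries. All siPRMT1 libraries lay far below the controls, a 5.03-fold fall (log2 fold change -2.33, SE 0.0639, adjusted p = 1.05e-145; -1.29 corrected). KMT2A, the MLL gene broken in leukaemia (ENSG00000118058; hg38, chromosome 11, 118436456 to 118526832, plus strand), had 19.4, 20.3 and 20.2 CPM in the siPRMT1 libraries and 81.2, 81.6 and 82.1 CPM in the control libraries. It too fell in every library (log2 fold change -2.03, SE 0.0452; -1.10 corrected). Its closest relative KMT2B moved the other way, with 41.8, 43.5 and 40.7 CPM in the siPRMT1 libraries and 28.7, 28.1 and 30.2 CPM in the control libraries, and rose by 0.54 on the log2 scale (SE 0.0474, adjusted p = 2.20e-26; 0.36 corrected). SETD7 (-1.47, -0.50 corrected), which also methylates proteins other than histones, KMT2D (-0.83, -0.75 corrected) and SETD1B (-0.43, -0.54 corrected) fell. SETD1A, which with SETD1B places much of the H3K4 trimethylation, rose by 0.20, but was lower after the correction (-0.12) and when scaled by library size alone (-0.12). KMT2E, a relative whose SET domain is held to be inactive, had 9.18, 8.97 and 8.47 CPM in the siPRMT1 libraries and 52.8, 49.2 and 47.8 CPM in the control libraries, a 5.62-fold fall (-2.49, SE 0.0616; -1.42 corrected). KMT2C has near-identical partial copies elsewhere in the genome. KMT2A, KMT2D and KMT2E overlap other genes on the same strand in the deposited table. Reads may have been shared, so these values are uncertain. The genes that overlap KMT2E on its own strand had 50 and 38 counts over all libraries.

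H3K9 methyltransferases split, with 3 of 6 higher and 2 lower (median log2 fold change 0.067, 0.41 corrected, -0.25 with library size alone). The counts were 1 lower and 4 higher after the correction, 4 and 2 with library size alone. SUV39H1, which trimethylates H3K9 in pericentric heterochromatin (ENSG00000101945; hg38, chromosome X, 48695554 to 48709016, plus strand), had 53.1, 54.1 and 55.6 CPM in the siPRMT1 libraries and 22.7, 23.1 and 25.5 CPM in the control libraries. It averaged 54.3 ± 1.28 CPM in siPRMT1 cells and 23.7 ± 1.498 CPM in control cells (SD, n = 3 each), a 2.28-fold rise (log2 fold change 1.19, SE 0.0467, adjusted p = 1.34e-93 by edgeR; 0.59 corrected). Its paralog SUV39H2 did not pass, at 0.0073 (adjusted p = 0.903), with groups that overlap; its value was 0.72 after the correction and -0.31 when scaled by library size alone. EHMT1 and EHMT2, also known as GLP and G9a, form a heterodimer that dimethylates H3K9, and they moved apart. EHMT1 had 26.6, 29.2 and 26.9 CPM in the siPRMT1 libraries and 43.1, 43.7 and 47.3 CPM in the control libraries and fell (-0.69, SE 0.0479; -0.83 corrected), whereas EHMT2 rose by 0.52 (SE 0.0337), a rise that was not seen after the correction (0.0032, adjusted p = 0.929). SETDB1, which silences repeats, rose by 0.13 (adjusted p = 0.0221) and was -0.19 with scaling by library size alone; leaving out control replicate 1, control replicate 2 or siPRMT1 replicate 3 put its adjusted p at 0.0716, 0.0832 and 0.128. SETDB2 fell by 0.56 but was 0.50 after the correction.

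Polycomb repressive complex 2 (PRC2), the writer of H3K27 methylation, changed unevenly among its subunits, of which 3 rose and 2 fell (median 0.17, 0.38 corrected, but -0.15 with library size alone). The counts were 2 lower and 3 higher after the correction, 3 and 2 with library size alone. EZH1, one of its alternative catalytic subunits, had 33.9, 37.4 and 36.7 CPM in the siPRMT1 libraries and 22.9, 21.1 and 22.3 CPM in the control libraries and rose 1.63-fold (log2 fold change 0.70, SE 0.0524, adjusted p = 3.82e-35 by edgeR; 0.94 corrected). EZH2, the more abundant of the pair, rose by 0.17 (SE 0.0377; 0.38 corrected) but -0.15 with scaling by library size alone. EED, which binds the finished mark, rose by 0.58 (0.59 corrected). SUZ12, the scaffold on which the others assemble, had 29.96, 30.1 and 31.9 CPM in the siPRMT1 libraries and 83.2, 85.1 and 86.3 CPM in the control libraries, with every siPRMT1 library below every control. It averaged 30.6 ± 1.06 CPM in siPRMT1 cells and 84.8 ± 1.53 CPM in control cells (SD, n = 3 each), a 2.77-fold fall (log2 fold change -1.47, SE 0.0405, adjusted p = 5.05e-145; -0.49 corrected). SUZ12 has a partial pseudogene copy, which makes its value uncertain. JARID2, an accessory subunit that helps recruit the complex, fell as well (-1.39; -0.94 corrected).

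All 5 H3K36 methyltransferases fell (median -1.35, -0.26 corrected; 4 lower and 1 higher after the correction, 5 and 0 with library size alone). Their median transcript had 10768 bases. Of all tested genes of 6000 bases or more, 79% were lower, and 45.7% after the correction. ASH1L, which dimethylates H3K36 at active genes, had 12.3, 13.4 and 13.4 CPM in the siPRMT1 libraries and 56.1, 53.4 and 53.2 CPM in the control libraries, a 4.16-fold fall (-2.06, SE 0.0549, adjusted p = 4.80e-150; -1.004 corrected). SETD2, which trimethylates H3K36 behind RNA polymerase II, fell by 1.40 (-0.39 corrected) and NSD3 by 1.35 (-0.18 corrected). NSD2, which had the highest level per kb of transcript of the NSD enzymes in both groups, fell by 0.68 (-0.26 corrected). NSD1 had the smallest fall, with 40.4, 37.1 and 35.1 CPM in the siPRMT1 libraries and 57.6, 59.4 and 58.2 CPM in the control libraries (-0.64, SE 0.0419), and was higher after the correction (0.24). DOT1L, the H3K79 methyltransferase, was the opposite: it had 50.5, 52.7 and 51.7 CPM in the siPRMT1 libraries and 29.3, 34.9 and 32.4 CPM in the control libraries and rose 1.61-fold (0.69, SE 0.0444; 0.48 corrected). AP3D1 and PLEKHJ1 overlap DOT1L on the other strand, and 9 more members (KDM2B, KDM5A, KMT2B, KMT2E, NSD3, SETD4, SETD9, SETDB1 and SUV39H2) overlap an opposite-strand gene. Libraries were stranded, but whether reads were counted by strand was not given in the sources used here, so these values are uncertain.

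KMT5C, which trimethylates H4K20 in heterochromatin (ENSG00000133247; hg38, chromosome 19, 55339853 to 55348121, plus strand), had 13.5, 10.9 and 11.6 CPM in the siPRMT1 libraries and 3.88, 3.60 and 3.58 CPM in the control libraries. It averaged 11.99 ± 1.32 CPM in siPRMT1 cells and 3.68 ± 0.169 CPM in control cells (SD, n = 3 each), a 3.23-fold rise (log2 fold change 1.69, SE 0.105, adjusted p = 2.73e-47 by edgeR; 0.62 corrected). KMT5B, which places most dimethylation of the same lysine, had 14.8, 15.99 and 16.1 CPM in the siPRMT1 libraries and 30.9, 30.7 and 28.8 CPM in the control libraries and fell (-0.94, SE 0.0600), but was 0.094 after the correction. KMT5A, the monomethyltransferase on whose product both act, rose by 0.37 (0.33 corrected; 0.058 with scaling by library size alone, adjusted p = 0.199). Of the other SETD genes, SETD6, which methylates the NF-kB subunit RELA, had 42.3, 44.9 and 43.2 CPM in the siPRMT1 libraries and 27.6, 30.6 and 29.1 CPM in the control libraries and rose (0.58, SE 0.0471; 1.36 corrected). SETD5 had 64.2, 60.7 and 60.2 CPM in the siPRMT1 libraries and 99.7, 98.7 and 97.7 CPM in the control libraries and fell (-0.68, -0.093 corrected), as did SETD3, a histidine methyltransferase of actin (-0.30, -0.045 corrected with an adjusted p of 0.235). SETD4 (-0.021) and SETD9 (-0.11) did not pass (adjusted p = 0.815 and 0.397).

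**Figure D2:**
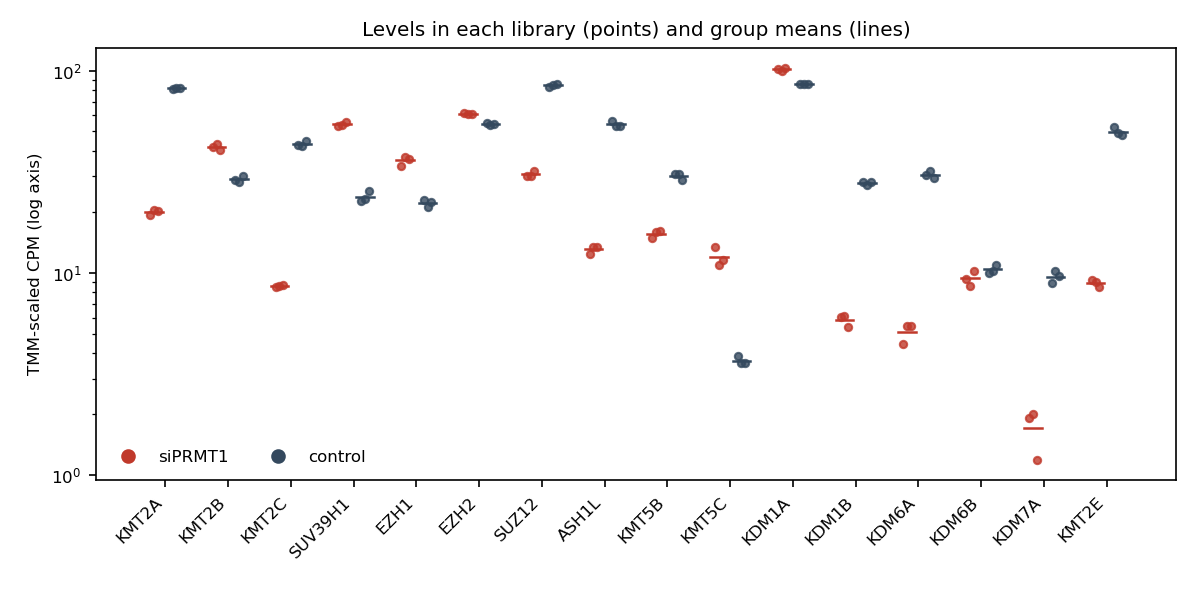
TMM-scaled CPM (vertical log axis) of 16 genes in each of the 3 siPRMT1 and 3 control libraries; points are libraries and short lines group means. KMT2A, KMT2C, KMT2E, SUZ12, ASH1L, KMT5B, KDM1B, KDM6A and KDM7A lie lower in all siPRMT1 libraries, KMT2B, SUV39H1, EZH1 and KMT5C higher, and the groups of KDM6B overlap.

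Of the flavin demethylases, which take mono- and dimethyl marks off H3K4, KDM1B (LSD2) had 6.02, 6.15 and 5.39 CPM in the siPRMT1 libraries and 28.1, 27.04 and 28.1 CPM in the control libraries, a 4.72-fold fall (log2 fold change -2.24, SE 0.0780, adjusted p = 1.67e-109; -1.56 corrected). KDM1A (LSD1), the catalytic subunit of CoREST, had 101, 99.4 and 103 CPM in the siPRMT1 libraries and 85.8, 86.1 and 86.2 CPM in the control libraries and rose by 0.24 (SE 0.0306; 0.17 corrected), but was -0.081 with scaling by library size alone. KDM2A and KDM2B, H3K36 demethylases with a domain that binds unmethylated CpG, both fell. KDM2A had 68.1, 67.98 and 69.9 CPM in the siPRMT1 libraries and 106, 103 and 101 CPM in the control libraries (-0.59, SE 0.0322; -0.24 corrected) and KDM2B had 27.4, 27.3 and 25.9 CPM in the siPRMT1 libraries and 35.2, 35.7 and 36.2 CPM in the control libraries (-0.41, SE 0.0504; -0.36 corrected). KDM3A and KDM3B, which act on H3K9, fell together. Both KDM3 genes had no overlap between groups. KDM3A had 28.2, 30.2 and 30.3 CPM in the siPRMT1 libraries and 71.8, 71.7 and 70.7 CPM in the control libraries (-1.27, SE 0.0423; -0.62 corrected). KDM3B had 25.7, 25.2 and 24.9 CPM in the siPRMT1 libraries and 72.7, 70.8 and 68.4 CPM in the control libraries (-1.48, SE 0.0441, adjusted p = 1.48e-132; -0.99 corrected).

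The KDM4 enzymes act on trimethylated H3K9 and H3K36. KDM4A had 26.9, 27.6 and 26.5 CPM in the siPRMT1 libraries and 37.3, 34.7 and 34.7 CPM in the control libraries and fell (-0.40, SE 0.0504; -0.19 corrected), and KDM4C fell further from a low level (-1.42, SE 0.142; -0.94 corrected), at 2.30 ± 0.321 CPM in siPRMT1 cells and 6.13 ± 0.323 CPM in control cells (SD, n = 3 each). KDM4B had 51.2, 47.4 and 49.5 CPM in the siPRMT1 libraries and 43, 41.4 and 41.8 CPM in the control libraries and rose by 0.23 (SE 0.0420), but was -0.085 after the correction and -0.090 when scaled by library size alone. KDM4D, at 1.27 ± 0.488 CPM in siPRMT1 cells and 1.505 ± 0.162 CPM in control cells, did not pass (-0.25, adjusted p = 0.313 by edgeR). KDM4A overlaps another gene of its own strand in the table, and KDM4D has close copies, so both are uncertain. All tested KDM5 genes, which remove H3K4 methylation, fell (1 lower and 1 higher after the correction, 3 and 0 with library size alone). The median KDM5 transcript had 9292 bases, and 79% of all tested genes of 6000 bases or more were lower. KDM5A had 14.8, 15.1 and 15.8 CPM in the siPRMT1 libraries and 33.8, 34.5 and 33.98 CPM in the control libraries (-1.16, SE 0.0586), a fall that was not seen after the correction (-0.040, adjusted p = 0.544). KDM5B fell by 0.62 but was 0.38 after the correction. KDM5C had 131, 134 and 138 CPM in the siPRMT1 libraries and 163, 167 and 166 CPM in the control libraries and the smallest fall of them (-0.30, SE 0.0253; -0.41 corrected).

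KDM6A, the UTX demethylase of H3K27 and a subunit of the KMT2C and KMT2D complexes (ENSG00000147050; hg38, chromosome X, 44873188 to 45112598, plus strand), had the lowest log2 fold change of all 52 genes. It had 4.47, 5.44 and 5.45 CPM in the siPRMT1 libraries and 30.4, 31.7 and 29.6 CPM in the control libraries, and averaged 5.12 ± 0.565 CPM in siPRMT1 cells and 30.6 ± 1.10 CPM in control cells (SD, n = 3 each). That is a 5.95-fold fall (log2 fold change -2.57, SE 0.0790, adjusted p = 6.48e-128 by edgeR; -1.69 corrected). The other H3K27 demethylase, KDM6B, had 9.31, 8.59 and 10.2 CPM in the siPRMT1 libraries and 9.997, 10.2 and 10.9 CPM in the control libraries, and its groups overlap (-0.15, adjusted p = 0.0872). Without siPRMT1 replicate 3 KDM6B passed (-0.22, adjusted p = 0.0355), as it did after the correction (-0.39). All 3 genes of the KDM7 group, which takes methyl marks mainly off H3K9, fell. The median KDM7 transcript had 6357 bases, and 79% of all tested genes of 6000 bases or more were lower (45.7% after the correction). KDM7A had 1.92, 2.01 and 1.18 CPM in the siPRMT1 libraries and 8.90, 10.2 and 9.60 CPM in the control libraries, where siPRMT1 replicate 3 was lowest (log2 fold change -2.46, SE 0.138, adjusted p = 7.32e-56; -1.10 corrected). PHF8 had 18.98, 15.9 and 18.7 CPM in the siPRMT1 libraries and 30.8, 31.1 and 30.6 CPM in the control libraries (-0.80, SE 0.0580; -0.52 corrected). PHF2 fell by 1.16, and the correction left it at -1.16. KDM8, also known as JMJD5, at 5.21 ± 0.297 CPM in siPRMT1 cells and 4.09 ± 0.294 CPM in control cells, rose by 0.36 (adjusted p = 0.00616); without control replicate 1 its adjusted p was 0.05004, its adjusted p with library size alone was 0.770, and its value was -0.32 after the correction.

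Ratios between paralogs within a library do not depend on how libraries are scaled, and 19 pairs were compared in this way. The libraries of the groups did not overlap for 18 of them, and 8 ratios differed between groups by over 1 on the log2 scale. For single genes, the groups did not overlap in 89.1% of all tested genes, and 15.3% rose and 21% fell at least 2-fold. Ratios of other gene pairs were not computed, so whether these counts are particular to paralogs was not tested. The exact two-sided permutation test over 3 against 3 libraries cannot give less than p = 0.10, which those 18 pairs reached (0.106 after Benjamini-Hochberg adjustment over the 19 pairs), so none could pass 0.05. KMT5B took 30.6%, 36.9% and 35.8% of the KMT5B and KMT5C level per kb of transcript in the siPRMT1 libraries and 76.1%, 77.3% and 76.3% in the control libraries. The log2 ratio differed by -2.64 (-0.53 corrected), with KMT5C the higher of the 2 in siPRMT1 and KMT5B in control libraries. KMT2A took 19.2%, 19.3% and 20.2% of the KMT2A and KMT2B level in the siPRMT1 libraries and 59.1%, 59.7% and 58.1% in the control libraries (difference of the log2 ratio -2.56; -1.46 corrected). KDM6A took 34.6%, 41.1% and 37% of the KDM6A and KDM6B level in the siPRMT1 libraries and 77.1%, 77.4% and 74.9% in the control libraries (-2.43; -1.30 corrected). In these 3 pairs, and for KDM4A with KDM4B (-0.63; -0.11 corrected), the gene with the larger share differed between all siPRMT1 and all control libraries. KDM4A, whose value is uncertain as said above, took 39.6% to 42.1% in siPRMT1 libraries. In control libraries it took 50.9% to 52.03%, only slightly more than KDM4B. The GC and length correction was not applied to the shares, and the corrected differences are smaller in each of these pairs. Whether the gene with the larger share still differs after the correction was not tested. KDM1A took 96.1%, 95.97% and 96.6% of the LSD level in the siPRMT1 libraries and 81.8%, 82.4% and 81.9% in the control libraries (2.49; 1.74 corrected).

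Outside the 4 pairs that differ most (KMT5B/KMT5C, KMT2A/KMT2B, KDM1A/KDM1B and KDM6A/KDM6B), shifts were smaller. The ratio of EZH2 to EZH1 differed by -0.53 on the log2 scale, and EZH2 took 74% to 76.1% of their level in siPRMT1 libraries and 80.8% to 81.6% in control libraries (-0.56 corrected). KMT2C against KMT2D differed by -1.503 (-0.54 corrected) and EHMT1 against EHMT2 by -1.22 (-0.84 corrected). SUV39H1 against SUV39H2 differed by 1.19, but by -0.13 after the correction. NSD2 against NSD1 was the pair with overlapping libraries (-0.040; exact permutation p = 0.600). The corrected difference had the same sign as the uncorrected one in 15 of 19 pairs.

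**Figure D3:**
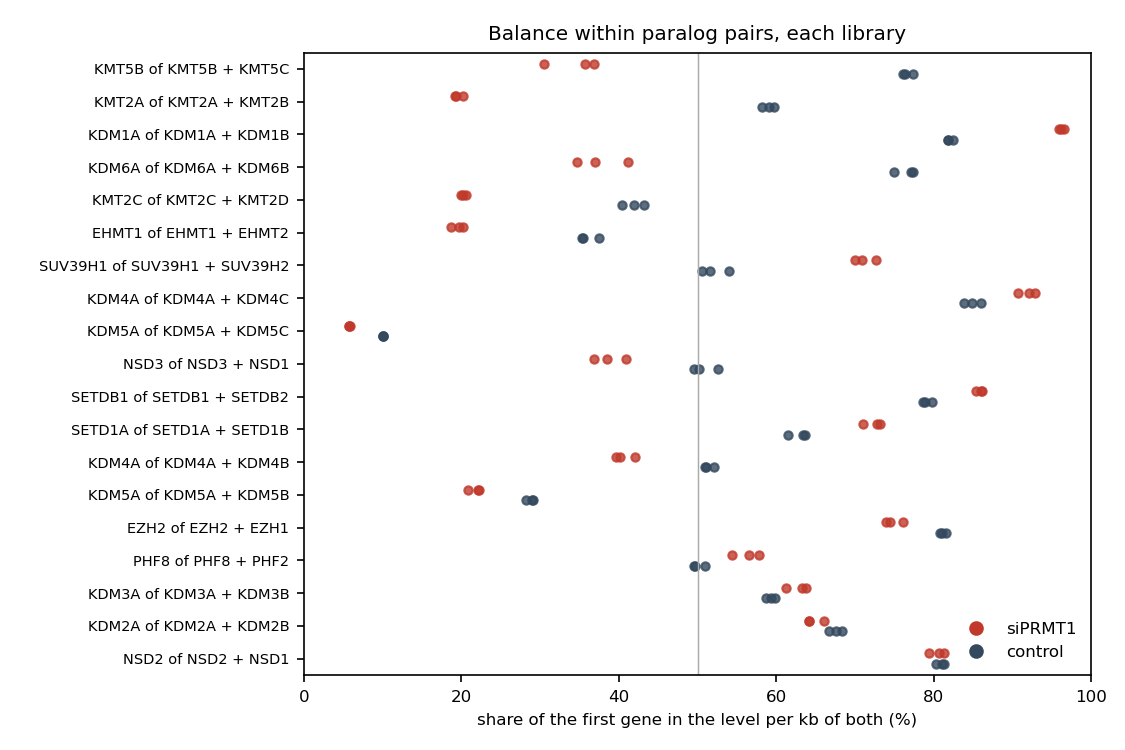
Share (%, horizontal axis) of the first gene in the summed level per kb of a pair of paralogs, in each siPRMT1 and control library, with pairs in order of the size of the difference. KMT5B, KMT2A, KDM6A and, beside KDM4B, KDM4A lie below 50% in siPRMT1 libraries and above it in control libraries, and NSD2 with NSD1 is the only pair of the 19 whose groups overlap. The GC and length correction was not applied to these shares.

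The order of abundance among the enzymes, as CPM per kb of the canonical transcript, changed with these shifts. In siPRMT1 cells KDM1A was highest (32.9 ± 0.645 CPM per kb; SD, n = 3), followed by EED (26.4 ± 0.921), KDM5C (23.1 ± 0.633), EZH2 (23.1 ± 0.189) and EHMT2 (22.3 ± 0.604). In control cells KDM5C (28.4 ± 0.328 CPM per kb; SD, n = 3) and KDM1A (27.9 ± 0.0575) were highest, followed by SETD3 (23.2 ± 0.564), EZH2 (20.5 ± 0.332) and NSD2 (18.96 ± 0.346). KDM5C, EZH2 and EHMT2 in siPRMT1 cells and KDM5C and KDM1A in control cells lie within about 1 or 2 SD (the larger one) of each other. Their order is therefore not resolved. SUV39H1 was at rank 6 of 52 in siPRMT1 and 17 in control cells, KMT5C at rank 23 and 47, KMT2E at rank 45 and 24, and KDM6A at rank 48 and 28. KDM4D was at rank 51 in siPRMT1 and 52 in control cells, and KDM7A at rank 52 and 51, with 0.185 ± 0.0494 CPM per kb in siPRMT1 and 1.04 ± 0.0702 in control cells.

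Transcripts of these genes are long. The median canonical transcript had 5900.5 bases, against 3253 over all tested genes, with a median coding part of 3558 against 1371 bases, and 22 against 9 exons. Median GC content was near that of all genes (49.3% against 48.6%). Members that rose had a median of 3979 bases and 57.4% GC, and those that fell 6766 bases and 45.6% GC. Their 3' UTRs had a median of 675 bases in members that rose and 2052 in those that fell. Across the 52 members the log2 fold change had a Spearman rho of -0.55 with transcript length and 0.55 with GC content, beside -0.56 and 0.65 across 13694 tested genes. With the corrected fold change, rho with length was -0.39 across the members and -0.027 across all tested genes, and rho with GC content 0.12 and -0.0018; the correction left a larger rho with length in the members than over all genes. These are correlations across genes of the same 6 libraries, which are not independent replicates, and they are given as a description.

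With transcripts of 6000 bases or more, 21 of 25 members fell (84%), beside 79% of 2444 tested genes of that length, and after the correction 72% beside 45.7%. Their median log2 fold change was -0.83 against -0.94. With transcripts under 3000 bases, 6 of 10 members rose, beside 66.8% of 6253 genes, and the medians were 0.26 and 0.57. Long transcripts differed by GC content: KMT2D (20635 bases, 59.8% GC) fell by 0.83 and KMT2C (16860 bases, 45.02% GC) by 2.33. KMT2B (8485 bases, 63.5% GC) and DOT1L (7652 bases, 63.2% GC) rose, as given above. SETD6 has a long transcript with a lower GC content (6256 bases, 45.1% GC) and rose. The part of length and GC content in any 1 gene's change was not tested beyond the corrected values given here.

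**Figure D4:**
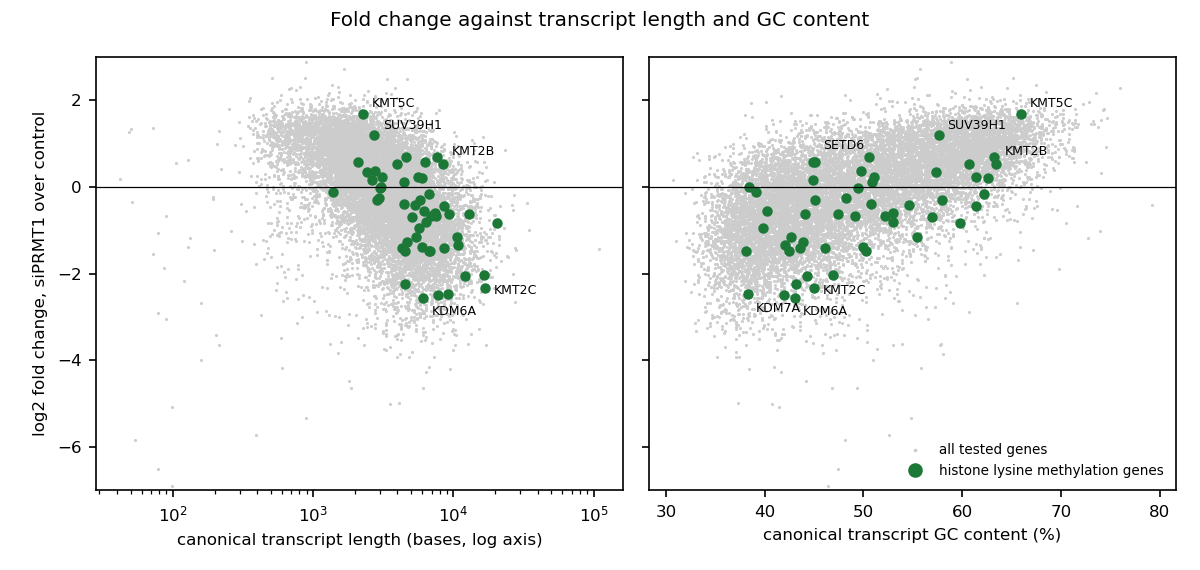
Log2 fold change (siPRMT1 over control, vertical axis) against the length (left, log axis) and GC content (right) of the canonical transcript; grey points are all tested genes with a transcript entry and green points the 52 histone lysine methylation genes. The green points follow the slope of the grey ones, with KMT5C and SUV39H1 at the short and GC-rich end. KDM7A (9220 bases, 38.3% GC), labelled at right only, lies at the AT-rich end. Its transcript is long but shorter than that of KMT2C (16860 bases).

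In the 300 bases around the start (RefSeq, GRCh38.p14; 49 members with an entry used), the GC box GGGCGG was found on either strand in 10 of 14 members that rose and 23 of 30 that fell, beside 69.4% of all tested genes with an entry. The CCAAT box was found in 6 of 14 members that rose and 11 of 30 that fell, beside 36.6% of all tested genes with an entry. The ETS site CCGGAAG was found in 1 of 14 members that rose and 4 of 30 that fell, beside 19% of all tested genes with an entry. The TATA box TATAAA (1 member), the CRE TGACGTCA (1) and the E2F site TTTCGCGC (0) were rare, as in all tested genes (5.88%, 3.21% and 1.03%). These are matches of letters in a window, not binding sites.

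Transcripts of partner proteins of these enzymes were also lower more often than higher. Of 95 genes in 8 lists, 87 were tested, 53 were lower and 28 higher (60.9% and 32.2%, beside 45% and 44.3% of all tested genes), with a median log2 fold change of -0.34 (-0.17 corrected). The counts were 47 lower and 30 higher after the correction (54% and 34.5%, beside 40.6% and 39.9% of all tested genes). With library size alone they were 65 and 17, beside 55.4% and 33.5% of all tested genes. The median partner transcript had 4149 bases. Of all tested genes of 3000 to under 6000 bases, 57.7% were lower and 31.6% higher, close to the partners' uncorrected shares. After the correction 41.5% of the genes of that length were lower and 39.5% higher. Among subunits of COMPASS, the complex of the KMT2 and SETD1 enzymes, 10 of 15 fell and 5 rose (10 lower and 4 higher after the correction, 11 and 4 with library size alone). BOD1L1 had 9.18, 8.38 and 8.15 CPM in the siPRMT1 libraries and 56.1, 55.7 and 57.7 CPM in the control libraries (-2.72, -1.63 corrected), whereas CXXC1, which binds CpG islands, rose (1.11, 0.23 corrected). Of the PRC2 accessory subunits 5 of 9 fell (5 lower and 4 higher after the correction, 6 and 2 with library size alone), with LCOR lowest (-1.89, -0.74 corrected), and PHF19, a Polycomb-like protein that reads H3K36 methylation, had 167, 161 and 160.0 CPM in the siPRMT1 libraries and 74.9, 73.3 and 76.5 CPM in the control libraries and rose (1.12, 0.86 corrected). PRC1 subunits were split, 8 higher and 9 lower of 18 (8 lower and 7 higher after the correction, 10 and 5 with library size alone), between PCGF2 (1.47, 0.92 corrected) and PHC3 (-2.52, -1.06 corrected).

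Readers of H3K9 methylation and the HUSH silencing complex had 8 lower and 3 higher of 12, with a median of -0.29 that was 0.098 after the correction. Their direction turned with the correction (4 lower and 6 higher after the correction, 11 and 1 with library size alone). TRIM28, which brings SETDB1 to zinc finger repressors, had 411, 409 and 412 CPM in the siPRMT1 libraries and 186, 193 and 187 CPM in the control libraries and rose (1.12, 0.37 corrected), and ZNF644, a partner of the EHMT enzymes, fell (-1.60, -0.32 corrected). CoREST partners of LSD1 fell in 8 of 10 cases (6 lower and 2 higher after the correction, 8 and 2 with library size alone), and HMG20B was highest (1.24, -0.057 corrected). The genes listed as DOT1L partners fell in 4 of 6 cases while DOT1L rose (4 lower and 2 higher after the correction, 6 and 0 with library size alone). Their median transcript had 7281.5 bases, and 79% of all tested genes of 6000 bases or more were lower (45.7% after the correction). AFF4, the scaffold of the super elongation complex, had 44.2, 44.8 and 43.6 CPM in the siPRMT1 libraries and 222, 227 and 219 CPM in the control libraries (-2.33, -1.14 corrected), and MLLT6 was highest (0.11, but -0.21 with scaling by library size alone). Of 11 other lysine methyltransferase and demethylase genes 5 fell, MECOM (-2.52, -1.72 corrected) lowest, and 3 rose, SMYD5 (1.42, 0.85 corrected) highest; the counts were 6 lower and 3 higher after the correction, 8 and 2 with library size alone. Enzymes of the methyl donor cycle had 4 lower and 2 higher of 6 (4 lower and 2 higher after the correction, 5 and 1 with library size alone). MAT2B, the regulatory subunit of the enzyme that makes S-adenosylmethionine, had 34.2, 30.6 and 34.6 CPM in the siPRMT1 libraries and 120.2, 119 and 121 CPM in the control libraries (-1.86, -1.49 corrected), and AHCY, which clears the product S-adenosylhomocysteine, rose (0.44) but was -0.21 after the correction.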

How the data were processed

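Per the submitters' processing notes, fastp 0.23.2, STAR 2.7.6a, featureCounts, Subread 1.5.1 and edgeR 3.40.2 were used with hg38; what each did, which annotation was taken and how strand and duplicates were treated were not given in the sources used here. What the authors deposited is 1 table of raw read counts per gene. From it, genes were filtered with filterByExpr (13710 kept), scaled by TMM and compared with edgeR 4.0.16 (glmQLFit, glmQLFTest; R 4.3.3), Benjamini-Hochberg adjusted at 0.05 over all tested genes. The deposited table also holds a gene length, for which the canonical transcript of GENCODE release 44 was used instead (length and GC content known for 13694 tested genes). The correction removed splines with 5 degrees of freedom on GC content and log2 length per library, followed by TMM scaling anew. The common dispersion was 9.765625e-05, the lowest edgeR's default search allows. Within groups, chi-square over degrees of freedom between replicates was 1.05 to 1.38, close to counting noise alone. So small a spread cannot tell whether the libraries come from separate cultures. All 6 libraries were kept as replicates because the labels call them biological replicates, and the p-values may be too small if they are technical. Promoters are RefSeq's (51 of 55 members matched; those on chromosome 8 and of genes not tested left out).

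The members and lists were chosen with earlier results of these data known. Values per library are given, in each role with a member past the threshold at 5 CPM or more, for the genes with the highest and lowest log2 fold change, and for the 4 paralog pairs that differ most; KMT2A, KDM6B and PRMT1 enter in this way, and partner genes were named by the same rule per list. Alternatives were other scalings, DESeq2 1.42.0, limma-voom (limma 3.58.1), robust estimation, other filters, the replicate number as a block, the correction, and leaving out each library. Some genes of the lists are not reported here.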

Additional observations from a re-analysis of the deposited data

How the results depend on the processing

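Scaling by library size alone left 8 members and 17 partner genes higher, and moved the members' median log2 fold change to -0.89; upper-quartile scaling gave -0.62, the GC and length correction -0.19, and the correction with a replicate block -0.19. Sign changes are listed here for the members and, of the partner genes, only for those named above. Over all 87 tested partner genes the correction changed the sign of 24, of which 16 were called in opposite directions. With library size alone the sign turned for EZH2 -0.15, KDM1A -0.081, KDM4B -0.090, SETD1A -0.12, SETDB1 -0.19, SUV39H2 -0.31, MLLT6 -0.21. After the correction it turned for KDM4B -0.085, KDM5B 0.38, KDM8 -0.32, KMT5B 0.094, NSD1 0.24, SETD1A -0.12, SETD4 0.0017, SETDB2 0.50, AHCY -0.21, HMG20B -0.057, and with the correction and the replicate block for KDM4B -0.082, KDM5B 0.38, KDM8 -0.33, KMT5B 0.092, NSD1 0.24, SETD1A -0.12, SETD4 0.0080, SETDB2 0.50, AHCY -0.21, HMG20B -0.057. SUV39H2 was -0.040 with upper-quartile scaling and -0.0054 with no filter. Corrected paralog differences of opposite sign were SUV39H1/SUV39H2 -0.13, SETDB1/SETDB2 -0.18, KDM2A/KDM2B 0.12, KDM5A/KDM5C 0.37. The replicate block alone gave 15 members higher and 32 lower and 12219 genes changed, and changed no member's call; same-numbered libraries share only a number (correlation of their deviations -0.0061 to 0.015). DESeq2 left 14 members higher, SETDB1 being lost. Upper-quartile scaling gave 14 higher and 33 lower, with SETDB1 (adjusted p = 0.160) and MLLT6 (0.0503) lost and KDM6B passing (0.0248). Leaving out 1 library gave 13 to 15 members higher, 32 to 33 lower, and a median of -0.59 to -0.55. The ranges of those that changed sign were -0.088 to 0.069 for SETD4, -0.017 to 0.039 for SUV39H2, -0.48 to 0.012 for KDM4D and -0.076 to 0.0086 for the ratio of NSD2 to NSD1. The cause of these moves was not tested. KDM4D had few reads and an SE of 0.235 on the log2 scale.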
